A study of Mus musculus with 78 samples.

Results

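Branched-chain amino acid breakdown was followed through 10 mouse genes chosen by symbol, namely Bcat1, Bcat2, Bckdha, Bckdhb, Dbt, Bckdk, Ppm1k, Ivd, Mccc1 and Hibadh, out of 36904 gene IDs in the table. All 10 were among the 18218 genes tested, which passed a filter on low counts, although Bcat1 had a median of only 7 counts per replicate. The tissue was soleus, a slow-fibred postural muscle of the calf, from C57Bl/6 mice, and RNA was sequenced in bulk. The groups were 28-month males on feed with 2% calcium alpha-ketoglutarate (CaAKG, 12 replicates), 28-month control males (10) and 28-month control females (7), all of batch 2, and control mice of batch 1 at 6, 12, 20 and 28 months. Batch 1 held 6 males and 4 females at 6 months, 6 of each sex at 12 months, 9 males and 6 females at 20 months, and 5 males and 6 females at 28 months. All groups have the genotype label C57Bl/6 and no other allele, and the control groups are labelled as controls without an agent. Ages are read from the titles, and the duration of the CaAKG feed is not given in the sources used here. Per the design text, the mice of 6 and 12 months came from another supplier than the 20-month mice, so supplier and age cannot be told apart in the 20 to 6 month comparisons. The supplier of the 28-month mice is not given there. Replicates are separately labelled libraries (2 that share an animal tag were summed), and nothing says that the others came from separate animals, so p-values measure only the spread between these samples. In bulk tissue, fewer cells of a type and less RNA per cell cannot be told apart.

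On mm10 the transaminase genes were Bcat1 (ENSMUSG00000030268) at chr6:144993835-145076184 and Bcat2 (ENSMUSG00000030826) at chr7:45570153-45589711. The complex genes were Bckdha (ENSMUSG00000060376) at chr7:25629946-25658981, Bckdhb (ENSMUSG00000032263) at chr9:83925145-84124240 and Dbt (ENSMUSG00000000340) at chr3:116513070-116549981, and its switch genes Bckdk (ENSMUSG00000030802) at chr7:127904082-127910221 and Ppm1k (ENSMUSG00000037826) at chr6:57506502-57535468. The later enzymes were Ivd (ENSMUSG00000027332) at chr2:118861954-118882909, Mccc1 (ENSMUSG00000027709) at chr3:35959312-36000678 and Hibadh (ENSMUSG00000029776) at chr6:52546228-52640389. Each value below is the summed count of the whole gene.

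Leucine, isoleucine and valine are broken down largely in muscle, because the liver has little of the transaminase that starts the pathway. That enzyme, encoded by Bcat2 in mitochondria and Bcat1 in the cytosol, moves the amino group to alpha-ketoglutarate, which gives glutamate and a branched-chain keto acid. The keto acid is then decarboxylated by the branched-chain keto acid dehydrogenase complex, built of the decarboxylase subunits Bckdha and Bckdhb and the transacylase core Dbt. This committed step is switched off when the kinase Bckdk phosphorylates Bckdha, and switched on again when the phosphatase Ppm1k removes the phosphate. Ivd and Mccc1 act later on the leucine branch, and Hibadh on the valine branch.

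The promoter windows of the kinase, the phosphatase and 1 decarboxylase subunit are shown because Bckdk and Ppm1k moved in opposite directions with age and Bckdhb fell beside Bckdk. Each runs from 250 bases before the start site to 50 after it, on the gene's own strand, and comes from RefSeq on GRCm38.p6, which matched 9 of the 10 genes (all but Dbt). The windows lie at chr7:127903823-127904122 (plus strand, Bckdk), chr6:57535438-57535737 (minus strand, Ppm1k) and chr9:83924887-83925186 (plus strand, Bckdhb). Capitals mark a GC box, GGGCGGG or its reverse complement CCCGCCC.
Bckdk: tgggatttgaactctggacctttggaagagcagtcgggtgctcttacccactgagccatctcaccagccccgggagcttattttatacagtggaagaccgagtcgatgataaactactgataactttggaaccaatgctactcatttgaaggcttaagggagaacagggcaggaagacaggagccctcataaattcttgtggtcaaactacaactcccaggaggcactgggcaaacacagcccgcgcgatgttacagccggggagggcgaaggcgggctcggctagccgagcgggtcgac
Ppm1k: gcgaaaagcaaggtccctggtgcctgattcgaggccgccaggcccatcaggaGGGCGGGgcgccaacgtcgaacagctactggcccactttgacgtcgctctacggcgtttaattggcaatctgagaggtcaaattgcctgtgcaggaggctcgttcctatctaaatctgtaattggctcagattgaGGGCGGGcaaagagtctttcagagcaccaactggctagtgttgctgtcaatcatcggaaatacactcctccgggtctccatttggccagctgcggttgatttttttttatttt
Bckdhb: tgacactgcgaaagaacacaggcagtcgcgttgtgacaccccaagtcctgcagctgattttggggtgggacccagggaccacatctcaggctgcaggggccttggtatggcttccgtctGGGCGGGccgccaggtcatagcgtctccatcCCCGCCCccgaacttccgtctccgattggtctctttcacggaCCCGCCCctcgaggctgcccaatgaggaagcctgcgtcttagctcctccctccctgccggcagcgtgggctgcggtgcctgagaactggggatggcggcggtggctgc
The Ppm1k window held 2 GC boxes, the Bckdhb window held 3, and no GC box letters occurred in the Bckdk window. Among the 9 genes with a window, 4 held the box (Bckdhb, Ppm1k, Mccc1 and Hibadh), against 25.57% of all 32851 windows of the same length. The other motifs searched on both strands, with any overlaps counted, were an extended half-site for estrogen-related receptors (TNAAGGTCA, 1.282% of all windows), the NRF1 palindrome (0.9711%), the ETS and GABP core CCGGAAG (8.858%), the PPAR direct repeat, which shares letters with that half-site (0.03957%) and the E-box CACGTG (7.15%). These letters occurred in 0 of the 9 windows, which says nothing about the factors themselves.

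Totals were 19.5 to 81.6 x 1e6 expected counts per library (median 35.2), of which the mitochondrial genome held 10.05% to 46.52%. Muscle fibre markers were high in all 77 replicates, at a summed 32891 CPM or more (counts per 1e6 of a library), as the tissue label states. The transcripts of the sex chromosomes went against the label in 5 libraries, which were replicates 1 and 4 of the 12-month females and replicate 3 of the 12-month males, the 6-month females and the 6-month males. Skin or marrow transcripts passed 100 CPM in 9 others. Both sets together are called the doubtful libraries. Calls on the 10 genes that were lost without either set, or without both, are given with those values below.

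The genes of the pathway differed widely in level. Per kilobase of transcript, Bckdha averaged 85.5 CPM and Hibadh 85.2 CPM over the 77 replicates, Ivd 58.7, Bckdk 44.5, Bcat2 36.2, Bckdhb 23.3, Mccc1 18.3, Dbt 11.0, Ppm1k 5.65 and Bcat1 0.124 CPM. These levels divide by the length of the principal transcript. For Bckdk that is 3405 bases, against a median of 1792 over its coding transcripts, so its place in this order depends on the transcript taken. The group means of Bckdha (69.1 to 112.7 CPM per kilobase) and Hibadh (64.7 to 110 CPM per kilobase) covered nearly the same range. The mitochondrial transaminase Bcat2 stood far above its cytosolic relative Bcat1, which was listed at 0 in 10 replicates. Ppm1k varied most among the 9 genes above 1 CPM, with a 7.82-fold range over replicates, against 2.36-fold for Hibadh.

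Markers of other cell types and of fibre types also differed between the age groups beside the changes that follow, and their part in them was not tested. The summed level of 12 endothelial markers had a median of 754 CPM (635 to 873) in 20-month males against 185 CPM (129 to 265) at 6 months, and 709 CPM (613 to 810) in 20-month females against 224 CPM (176 to 431), without overlap in either sex. Of these markers 10 rose and 0 fell in 20-month males, 10 rose and 1 fell in 20-month females, 10 rose and 0 fell in 28-month males, and 4 rose and 0 fell in 28-month females. Of 10 fast fibre markers 0 rose and 7 fell in 20-month males, and 0 rose and 5 fell in 20-month females. Of 10 slow fibre markers 2 rose and 7 fell in 20-month males, and 3 rose and 4 fell in 20-month females. At 28 months 0 slow markers rose and 2 fell in males, and 0 rose and 4 fell in females. Fast markers gave 0 and 0 in those males and 1 and 1 in those females. Over all genes 22.6% rose and 22% fell in 20-month males, and 18.2% and 17.8% in 20-month females. The shares were 6.76% and 9.38% in 28-month males, and 9.91% and 9.04% in 28-month females. Of 12 adipocyte markers 7 rose in 20-month males and 6 in 28-month males, against 1 in females at each age. In 28-month females of batch 1, 14 of 14 neutrophil and marrow markers rose, and 6 of 12 keratinocyte markers, with the highest sums in few libraries. The neutrophil and marrow sum had a median of 38.9 CPM (3.99 to 1843), against 2.21 CPM (0.874 to 4.54) at 6 months, and passed 100 CPM only in replicates 10 and 12. The keratinocyte sum had a median of 5.86 CPM (3.91 to 11447), against 4.95 CPM (2.89 to 84.0), and passed 100 CPM only in replicate 8.

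By age, the most genes of the set passed the test between 20 and 6 months. In females 6 of the 10 passed, 1 higher and 5 lower at 20 months, where 36% of all genes tested passed (18.2% higher and 17.8% lower). In males 6 passed, 2 higher and 4 lower, where 44.6% of all genes passed (22.6% higher and 22% lower). Between 28 and 6 months in batch 1, 4 of 10 passed in females, all lower, against 18.9% of all genes (9.91% higher and 9.04% lower), and 3 of 10 in males, 1 higher and 2 lower, against 16.1% of all genes (6.76% higher and 9.38% lower). The median log2 fold change of the 10 genes was -0.26 in 20-month females and -0.28 in 20-month males, beside 0.00 and 0.02 over all genes. It was -0.22 in 28-month females and -0.15 in 28-month males, beside 0.09 and 0.02 over all genes. These comparisons share their 6-month mice within a sex, and p-values are edgeR quasi-likelihood values with Benjamini-Hochberg adjustment at a threshold of 0.05.

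**Figure D1:**
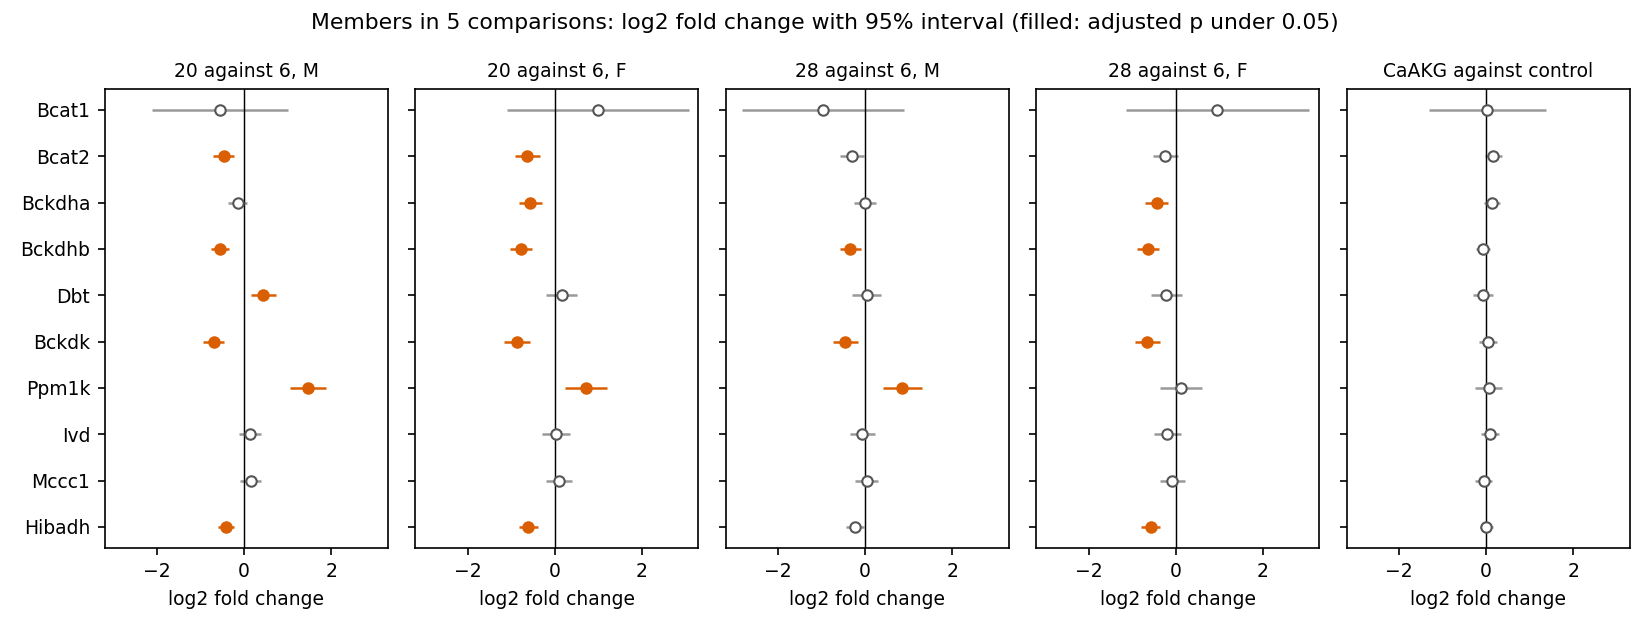
Log2 fold change of each gene (x axis) with its 95% interval in 5 comparisons, the older group over 6 months or CaAKG over control; filled points passed an adjusted p of 0.05. Bckdk lies left of 0 in all 4 age comparisons, Ppm1k lies furthest right in 20-month males at 1.47, and no point is filled in the CaAKG panel.

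Bckdk, the kinase that inactivates the dehydrogenase complex, fell with age in both sexes. In males its lowest, median and highest values were 114, 123.9 and 144 CPM at 20 months, against 153, 219 and 239 CPM at 6 months. In females they were 107, 112.8 and 119 CPM at 20 months, against 165, 194, 277 and 178 CPM in the 4 replicates at 6 months. Every 20-month replicate was below every 6-month replicate of its sex. The log2 fold change was -0.69 ± 0.12 (SE) in males (adjusted p = 1.7e-06) and -0.86 ± 0.15 in females (adjusted p = 2.6e-06).

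At 28 months Bckdk was 166, 151, 140, 146 and 142 CPM in the 5 males of batch 1, against the same 6-month males at 153 to 239 CPM, so the groups overlapped. In 28-month females it ranged from 99.8 to 155 CPM (median 129), below all 4 females of 6 months. The log2 fold change was -0.46 ± 0.14 in males (adjusted p = 0.019) and -0.65 ± 0.15 in females (adjusted p = 0.0017). The female value rested partly on replicate 3 of the 6-month females, the highest of the 4 and a library against its sex label: without it the change was -0.44 (adjusted p = 0.063), and without all libraries against their labels or with skin or marrow transcripts it was -0.35 (adjusted p = 0.11). In males the change without both sets was -0.53 (adjusted p = 0.00023).

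Ppm1k, the phosphatase that reactivates the complex, was higher at 20 than at 6 months, with a larger fold change in males (difference not tested). At 20 months its lowest, median and highest values in males were 28.9, 41.2 and 56.01 CPM, against 8.67, 15.3 and 20.1 CPM at 6 months, and the groups did not overlap. In 20-month females it was 32.2, 35.4 and 44.1 CPM, against 26.7, 26.3, 15.5 and 19.7 CPM in the 6-month females, again without overlap. The log2 fold change was 1.47 ± 0.21 in males (adjusted p = 1.0e-08), a fold of 2.77, and 0.73 ± 0.24 in females (adjusted p = 0.014), a fold of 1.65. Without replicate 3 of the 6-month females the female change was 0.59 (adjusted p = 0.10), and without all libraries against their sex label it was 0.58 (adjusted p = 0.087). The summed level of 12 adipocyte markers also moved in males, at a median of 3418 CPM (2331 to 3618) at 20 months against 1759 CPM (1492 to 2332) at 6 months, and their part in the result was not tested. In females their medians were 3612 and 3323 CPM at 20 and 6 months.

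At 28 months in batch 1, Ppm1k was 17.4, 31.5, 30.4, 31.9 and 25.4 CPM in males, which overlapped the values of both the 6- and the 20-month males. In 28-month males it was 0.85 ± 0.23 higher than at 6 months on the log2 scale (adjusted p = 0.0059). In 28-month females it ranged from 18.3 to 31.8 CPM (median 22.9), with a change of 0.12 ± 0.24 (adjusted p = 0.77) and a 95% interval of -0.36 to 0.60. Against 20 months it fell by 0.61 in males (adjusted p = 0.034) and by 0.61 in females (adjusted p = 0.026), where 17% (8.25% higher and 8.78% lower) and 29.9% (17.3% higher and 12.6% lower) of all genes passed. Under the length and GC offsets described below these became -0.20 (adjusted p = 0.79) and -0.08 (adjusted p = 0.85). The call was lost without replicate 11 or 15 of the 28-month males, 2 or 6 of the 20-month males, 8 or 12 of the 28-month females or 5 of the 20-month females (log2 fold change -0.59 to -0.49, adjusted p = 0.051 to 0.15). In females it was -0.40 (adjusted p = 0.27) without the skin or marrow libraries. The 28-month replicates of batch 2 averaged 38.7 ± 5.51 CPM in control males (SD, n = 10) and 34.7 ± 7.87 CPM in control females (n = 7), above the 27.3 ± 6.14 CPM (n = 5) and 23.9 ± 4.61 CPM (n = 6) of batch 1, with log2 differences of 0.50 (adjusted p = 0.22) and 0.54 (adjusted p = 0.056).

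**Figure D2:**
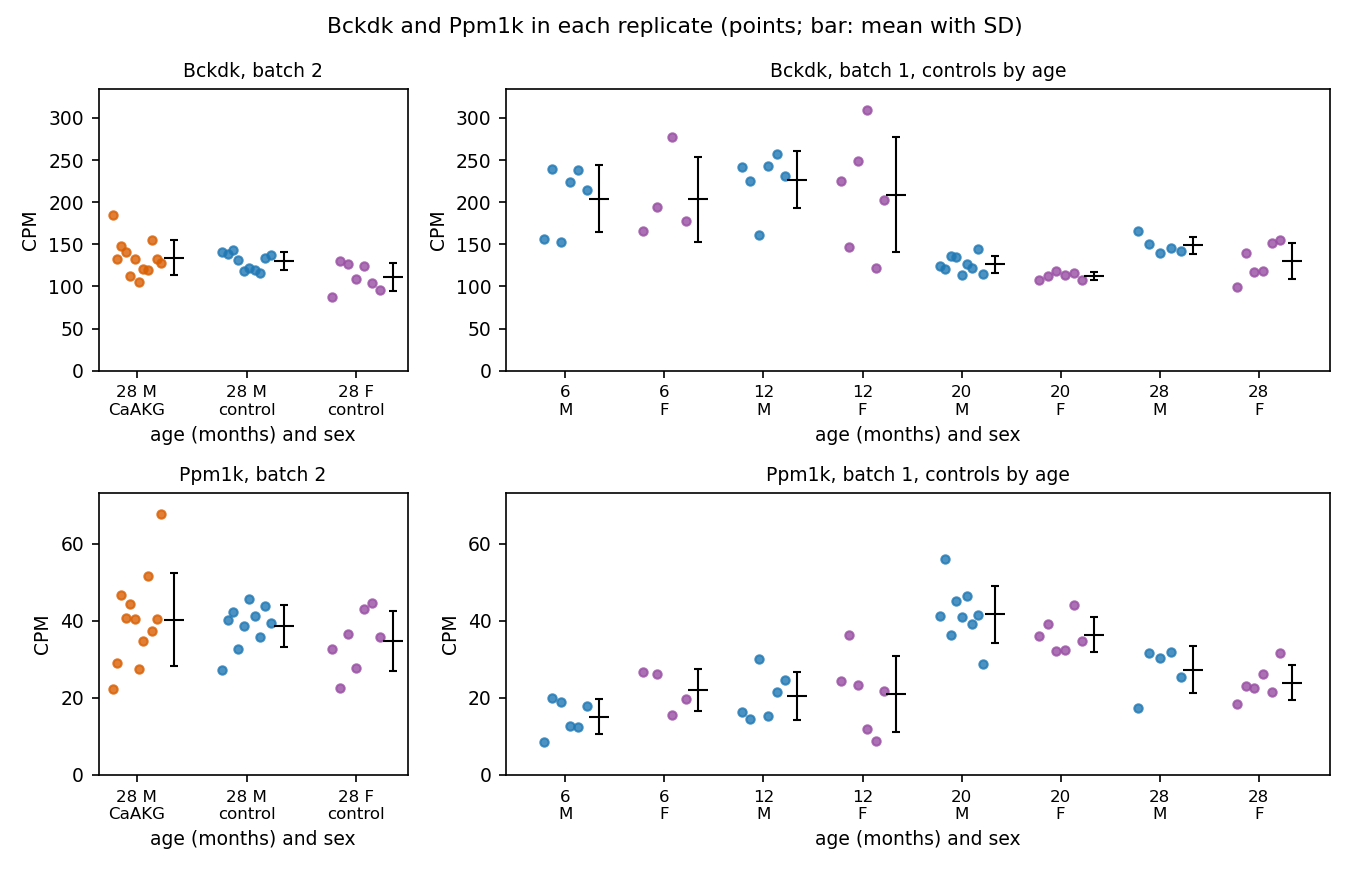
CPM of Bckdk (top) and Ppm1k (bottom) in each replicate, by age in months and sex, with batch 2 on the left and batch 1 on the right; bars give the mean and SD. In batch 1 all Bckdk points at 20 months lie at 144 CPM or less, while Ppm1k points at 20 months lie at 28.9 CPM or more.

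The number of Bckdk reads for each Ppm1k read puts both in a single value that does not depend on the scaling of libraries, without correction for transcript length. It averaged 14.5 ± 4.43 at 6 months (SD, n = 6), 12.2 ± 4.21 at 12 months (n = 6), 3.11 ± 0.55 at 20 months (n = 9) and 5.82 ± 2.12 at 28 months (n = 5) in males of batch 1. In females it averaged 10.1 ± 5.30 (n = 4), 12.1 ± 7.39 (n = 6), 3.12 ± 0.40 (n = 6) and 5.50 ± 0.90 (n = 6) in the same order. The 20-month males spanned 2.16 to 3.97, against 8.10 to 19.1 at 6 months, and the 20-month females 2.62 to 3.69, against 6.20, 7.39, 17.9 and 9.05. At 28 months the values of batch 1 overlapped those of 6 months in both sexes. Batch 2 gave 3.68 ± 1.63 with CaAKG, 3.44 ± 0.71 in control males and 3.38 ± 1.17 in control females, close to the 20-month mice of batch 1. The ratio was chosen with its components known, and it was given no test.

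**Figure D3:**
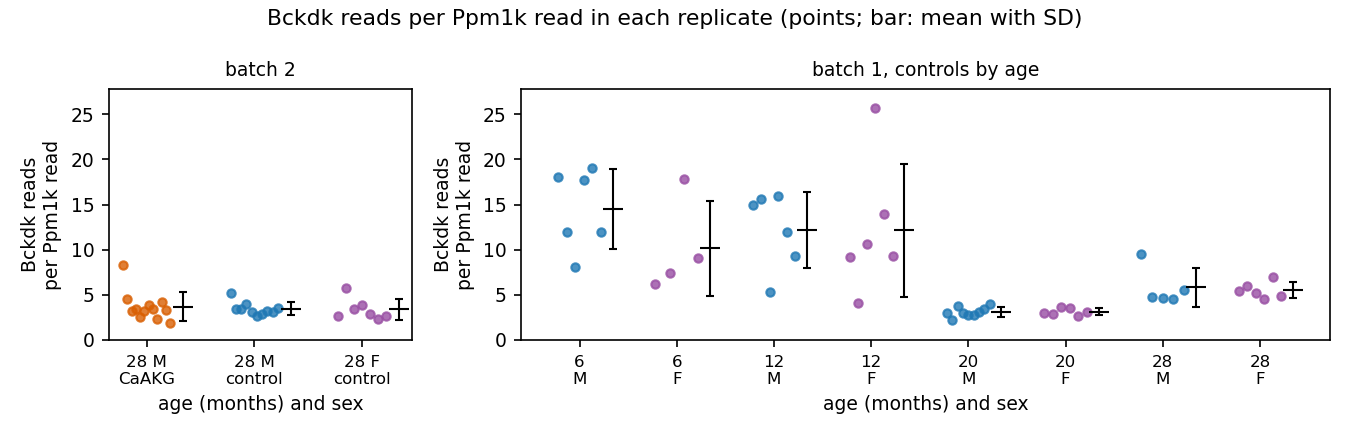
Bckdk reads per Ppm1k read in each replicate, by age in months and sex, with batch 2 on the left and batch 1 on the right; bars give the mean and SD. In batch 1 the 6- and 12-month points spread from 4.04 to 25.7, and those at 20 months from 2.16 to 3.97.

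Among the subunits of the complex, Bckdhb fell in both sexes and Bckdha passed the test in females. Against 6 months Dbt passed only in 20-month males, where it rose. Bckdhb, the beta subunit of the decarboxylase, was 22.5, 28.8 and 32.5 CPM (lowest, median, highest) in 20-month males, against 27.3, 43.5 and 48.9 CPM at 6 months. In 20-month females it was 27.3, 28.04 and 29.6 CPM, against 42.7, 53.9, 51.4 and 43.7 CPM. Only replicate 1 of the 6-month males reached down to the 20-month values. The log2 fold changes were -0.55 ± 0.10 in males (adjusted p = 7.4e-06) and -0.77 ± 0.13 in females (adjusted p = 9.0e-07). At 28 months they were -0.34 ± 0.12 (adjusted p = 0.039) and -0.62 ± 0.13 (adjusted p = 0.0006). The male value at 28 months passed in 6 of 11 fits that each left out 1 library, and was lost without replicate 11 or 15 of the 28-month males or replicate 2, 5 or 6 of the 6-month males (log2 fold change -0.35 to -0.29, adjusted p = 0.059 to 0.12). In 28-month females it was -0.42 (adjusted p = 0.081) without both sets of doubtful libraries, and -0.62 (adjusted p = 0.091) in a fit of the 28- and 6-month groups alone.

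Bckdha, the alpha subunit that carries the regulatory phosphate, was 130, 136 and 157 CPM in 20-month females, against 197, 211, 241 and 169 CPM at 6 months, without overlap. The log2 fold change was -0.56 ± 0.14 (adjusted p = 0.00056), and -0.44 ± 0.14 at 28 months (adjusted p = 0.018). Without replicate 3 of the 6-month females the 28-month change was -0.33 (adjusted p = 0.16), and without replicate 8 of the 28-month females, a library with skin transcripts, -0.37 (adjusted p = 0.057). Without both sets of doubtful libraries it was -0.22 (adjusted p = 0.38). In males the changes were -0.15 ± 0.11 at 20 months (adjusted p = 0.29) and -0.00 ± 0.13 at 28 months (adjusted p = 0.997, 95% interval -0.26 to 0.25), but the difference between the sexes at 28 months, 0.43 ± 0.19, did not pass either (adjusted p = 0.31).

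Dbt, the transacylase core, was 37.6, 41.3 and 50.4 CPM in 20-month males, all above the 24.3 to 36.9 CPM of the 6-month males. It rose by 0.44 ± 0.14 on the log2 scale (adjusted p = 0.0099), and by 0.34 (adjusted p = 0.064) without replicate 1 of the 6-month males. In 20-month females it changed by 0.16 ± 0.18 (adjusted p = 0.53). Bckdhb reads per Dbt read averaged 0.67 ± 0.07 at 20 months against 1.32 ± 0.19 at 6 months in males, and 0.71 ± 0.06 against 1.47 ± 0.61 in females. The 20-month replicates did not overlap those of 6 months in either sex.

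**Figure D4:**
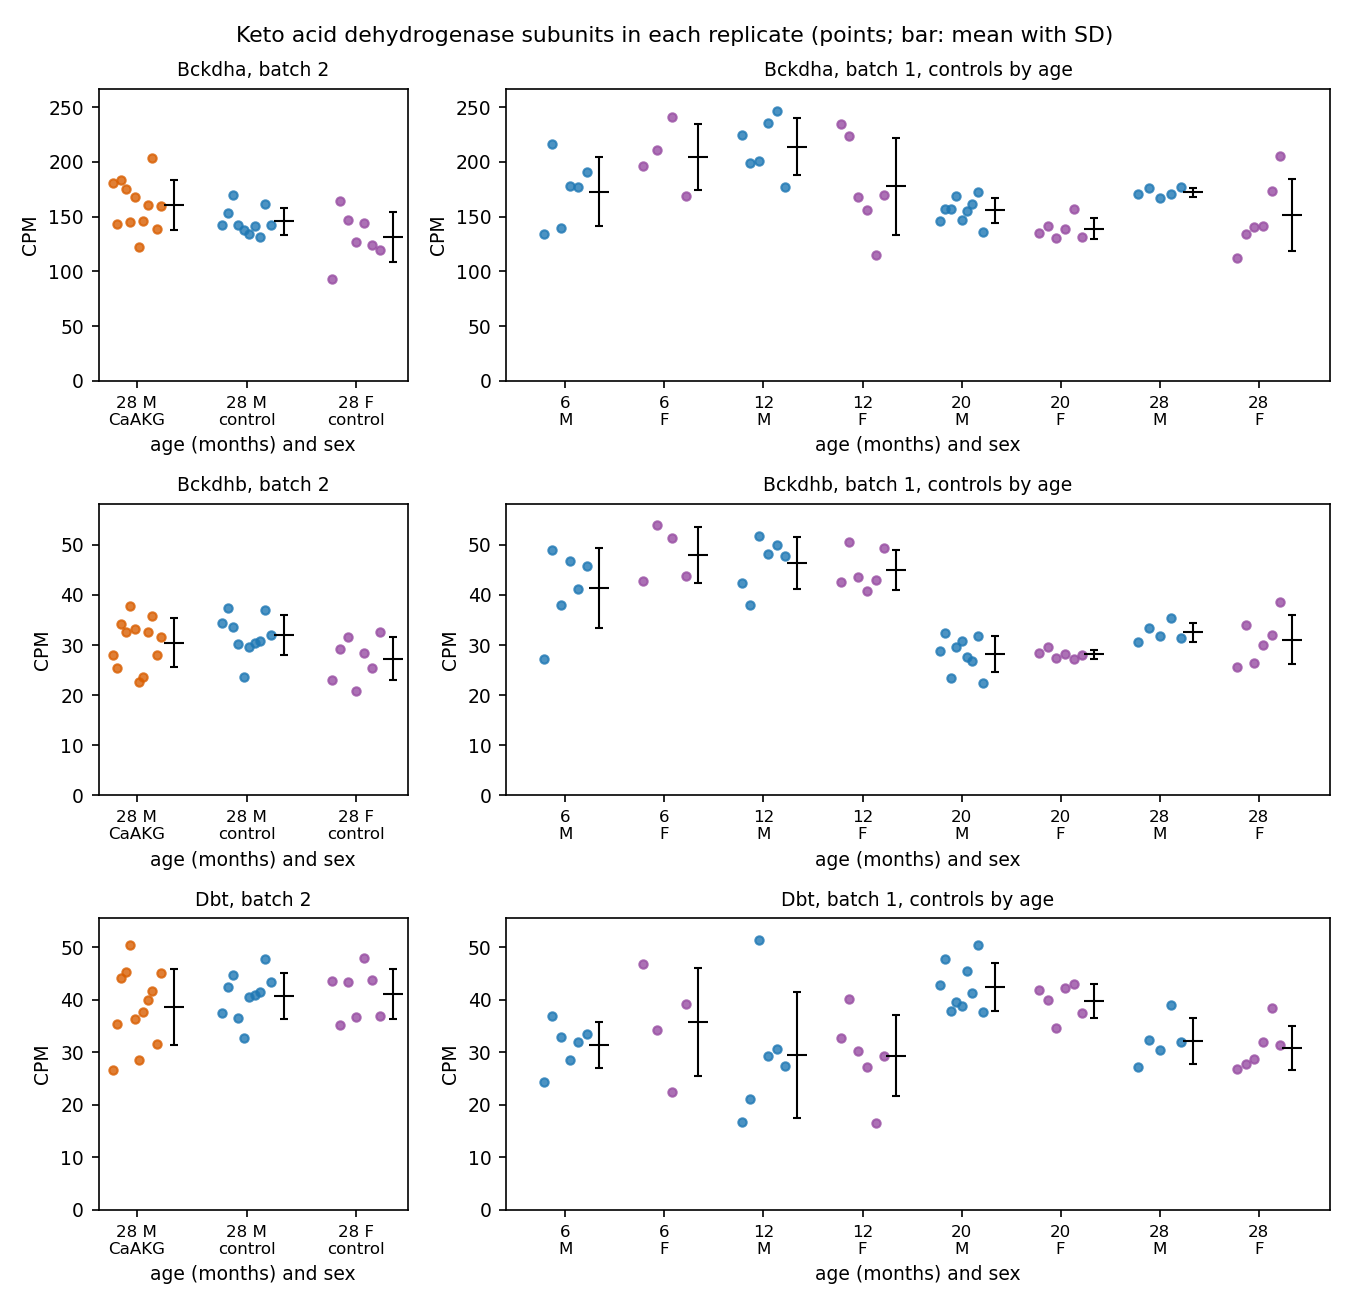
CPM of Bckdha (top), Bckdhb (middle) and Dbt (bottom) in each replicate, by age in months and sex, with batch 2 on the left and batch 1 on the right; bars give the mean and SD. Bckdhb points at 20 months lie between 22.5 and 32.5 CPM, under all but 1 of the 6-month points, while Dbt points at 20 months lie between 34.6 and 50.4 CPM.

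Bcat2, the mitochondrial transaminase, fell at 20 months. It was 48.6, 53.5 and 64.1 CPM in 20-month males, against 50.9, 77.4 and 94.8 CPM at 6 months, and 47.6, 51.9 and 58.9 CPM in 20-month females, against 79.4, 85.1, 88.9 and 73.2 CPM. The log2 fold change was -0.47 ± 0.12 in males (adjusted p = 0.0007) and -0.63 ± 0.15 in females (adjusted p = 0.00029). At 28 months it was -0.30 ± 0.14 in males (adjusted p = 0.13) and -0.24 ± 0.15 in females (adjusted p = 0.25), and the 28-month females were 0.39 ± 0.13 above those of 20 months (adjusted p = 0.018), or 0.28 (adjusted p = 0.11) without their highest replicate, number 13. With the length and GC offsets that change was 0.09 (adjusted p = 0.75), and with limma-voom 0.35 (adjusted p = 0.051). Bcat1, the cytosolic form, stayed at a group mean of 0.83 CPM or less. Its highest value, 3.43 CPM, was in replicate 1 of the 6-month males, which also had 448 CPM of summed macrophage markers, whose part was not tested. Its 95% intervals spanned -2.13 to 1.02 in 20-month males and -1.10 to 3.09 in 20-month females, so no change was detectable at this depth.

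Of the later enzymes, Hibadh fell, while Ivd and Mccc1 of the leucine branch passed in no comparison of the main fit. Auh, another enzyme of the leucine branch that is described further below, fell at 20 months in both sexes. Hibadh, which oxidises hydroxyisobutyrate from valine, was 131, 144 and 163 CPM in 20-month males, against 144, 208 and 218 CPM at 6 months, and 119, 129 and 134 CPM in 20-month females, against 190, 199, 207 and 179 CPM. It fell by 0.41 on the log2 scale (SE 0.09, adjusted p = 0.00011) in males and by 0.61 (SE 0.11, adjusted p = 8.3e-06) in females. In 28-month females it fell by 0.57 (adjusted p = 0.00045). That change was -0.44 (adjusted p = 0.015) without both sets of doubtful libraries, and -0.56 (adjusted p = 0.091) in a fit of the 28- and 6-month groups alone. In 28-month males the change was -0.23 (adjusted p = 0.13). Without the libraries against their sex label the male change at 28 months was -0.30 (adjusted p = 0.042).

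Ivd, isovaleryl-CoA dehydrogenase, averaged 224 ± 28.9 CPM in 20-month males (SD, n = 9) against 203 ± 34.8 CPM at 6 months (n = 6), and 223 ± 6.36 CPM in 20-month females (n = 6) against 218 ± 29.2 CPM (n = 4). Mccc1, the biotin-carrying subunit of methylcrotonoyl-CoA carboxylase, averaged 49.3 ± 4.29 against 44.3 ± 6.58 CPM in males, and 48.1 ± 2.55 against 44.8 ± 4.57 CPM in females, in the same order. Their adjusted p-values at 20 months were 0.40 or more for Ivd and 0.31 or more for Mccc1. In 12-month males Mccc1 changed by -0.25 (adjusted p = 0.24), and by -0.44 (adjusted p = 0.0093) without replicate 3, a library against its sex label.

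Between 12 and 6 months, 0 of the 10 genes passed in either sex by edgeR, where 9.85% of all genes passed in males (3.02% higher and 6.82% lower) and 0.231% in females (0.0384% higher and 0.192% lower). At an unadjusted p under 0.05 there were 1 in males and 2 in females, DESeq2 called 0 in each, and limma-voom called 1 in males (Mccc1) and 0 in females. Over all 18218 genes limma-voom called 3177 in males and 390 in females. Bckdk averaged 227 ± 34.02 CPM in 12-month males and 209 ± 68.4 CPM in 12-month females, against 204 ± 39.3 and 204 ± 50.3 CPM at 6 months.

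Transcript length moved with the age comparisons over all genes. Genes that rose at 20 months in males had a median length of 4838 bases, and genes that fell had 1737 bases. The Spearman correlation of length with log2 fold change across genes, which are not independent replicates, was 0.53 in males and 0.57 in females at 20 months, and 0.34 and 0.31 at 28 months. Ppm1k, at 5560 bases, has the longest transcript of the 10 genes, and Bckdhb, Bcat2, Hibadh and Bckdha, at 1472 to 1899 bases, are short. Offsets that remove a smooth trend on length and GC content in each library left 2 of the 10 genes past the threshold at 20 months in each sex, Ppm1k (higher) and Bckdk (lower) in males and Bckdk and Hibadh (lower) in females. In those fits 5504 of 18218 genes passed in males and 3160 of 18218 in females. Bcat2 then changed by -0.09 in males and -0.22 in females, Bckdhb by -0.16 and -0.36, Bckdha in females by -0.21, Hibadh in males by -0.19 and Dbt in males by 0.29, and none of these passed. The part of length in the changes was not tested beyond this.

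The offset for Bckdk depends on the transcript taken, since its principal transcript has 3405 bases and the median over its coding transcripts is 1792. With offsets from the principal transcripts its log2 fold change at 20 months was -0.86 in males (adjusted p = 2.7e-07) and -1.03 in females (adjusted p = 1.6e-06). With offsets from the median coding transcripts, a choice made after seeing the data, it was -0.43 in males (adjusted p = 0.001) and -0.56 in females (adjusted p = 0.001). At 28 months these median-transcript values were -0.37 in males (adjusted p = 0.045) and -0.58 in females (adjusted p = 0.003). Ppm1k with the 2 kinds of offset was 0.83 and 0.71 in 20-month males, both past the threshold, and 0.11 and 0.00 in 20-month females, neither past it. In 28-month males it was 0.63 (adjusted p = 0.0497) and 0.58 (adjusted p = 0.073).

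**Figure D5:**
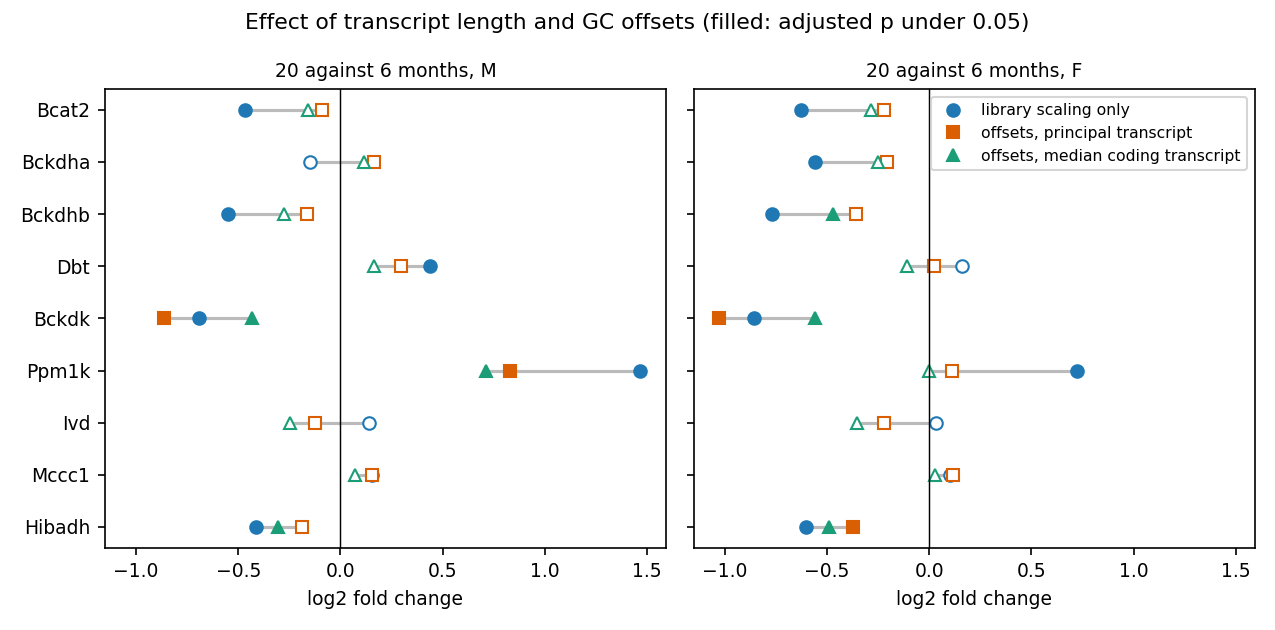
Log2 fold change (x axis) at 20 against 6 months with library scaling only (circles), with offsets from principal transcripts (squares) and with offsets from median coding transcripts (triangles); filled symbols passed an adjusted p of 0.05. Bckdk is filled under all 3 in both sexes and Ppm1k in males, while Bcat2 and Bckdha are filled in the offset fits of neither sex.

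CaAKG feed changed the transcript of none of the 10 genes past the threshold by edgeR, with 0.0659% of all genes passing. Of the 12 genes that passed, all higher, 7 were neutrophil and marrow markers. CaAKG replicates 6, 7, 8 and 10 and control replicate 4 were skin or marrow libraries. Without the skin or marrow libraries 0 of 17912 genes passed. Of the 10 genes, 0 had an unadjusted p under 0.05 in the main fit, and DESeq2 and limma-voom called 0. Bckdk was 105.5, 132 and 185 CPM (lowest, median, highest) with CaAKG, against 116, 132 and 144 CPM in control males. Ppm1k was 22.3, 40.5 and 67.7 CPM with CaAKG, against 27.3, 39.8 and 45.6 CPM. Bcat2, whose enzyme uses alpha-ketoglutarate as the acceptor, was 38.7, 62.5 and 81.4 CPM with CaAKG, against 46.6, 57.1 and 63.0 CPM. The groups overlapped for each of these genes, and the CaAKG replicates spread more widely.

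The 95% intervals show what sizes of CaAKG change the data leave possible. The fold was 1.12 for Bcat2 (0.98 to 1.28), 1.10 for Bckdha (0.97 to 1.2497), 0.95 for Bckdhb (0.85 to 1.07) and 0.95 for Dbt (0.81 to 1.11). It was 1.03 for Bckdk (0.90 to 1.18), 1.04 for Ppm1k (0.84 to 1.295) and 1.00 for Hibadh (0.90 to 1.11). Bcat1 allowed 0.40 to 2.59.

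Sex differences were few. At 20 months 0 of the 10 genes passed between males and females by edgeR, DESeq2 and limma-voom, 1 had an unadjusted p under 0.05, and 0.22% of all genes passed (0.137% higher and 0.0823% lower in males). At 28 months in batch 2, 1 of 10 passed, against 1.3% of all genes (0.917% higher and 0.379% lower in males): Hibadh averaged 147 ± 13.3 CPM in males (n = 10) and 118 ± 10.6 CPM in females (n = 7), a log2 difference of 0.32 ± 0.09 (adjusted p = 0.043). That call passed in 3 of 17 fits that each left out 1 library, and the difference was 0.29 (adjusted p = 0.052) without the libraries against their sex label. The change from 6 to 28 months differed between the sexes for 0 of the 10 genes by edgeR, DESeq2 and limma-voom (0.329% of all genes, 0.11% positive and 0.22% negative), with 3 at an unadjusted p under 0.05. Between batches at 28 months, Dbt was higher in batch 2 in females, at 41.1 ± 4.79 CPM against 30.8 ± 4.22 CPM (log2 difference 0.41, adjusted p = 0.043), the 1 gene of 10 that passed where 19.8% of all genes did (6.75% higher and 13% lower in batch 2). That call passed in 4 of 13 fits that each left out 1 library. Without the skin or marrow libraries the Dbt difference was 0.42 (adjusted p = 0.11), while Bcat2 was called lower in batch 2 (-0.40, adjusted p = 0.033). In males 0 of 10 passed by edgeR or DESeq2 and 3 by limma-voom, against 1.02% of all genes by edgeR (0.818% higher and 0.198% lower), with 3 at an unadjusted p under 0.05. Over all 18218 genes limma-voom called 2952 there.

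The other enzymes of the pathway, 21 genes listed apart from the 10, had medians near or below 0 against 6 months, at log2 fold changes of -0.16 in 20-month females, -0.14 in 20-month males, -0.27 in 28-month females and -0.05 in 28-month males. At 20 months 3 rose and 7 fell in females, where 18.2% of all genes rose and 17.8% fell, and 5 rose and 7 fell in males, where 22.6% rose and 22% fell. At 28 months 0 rose and 10 fell in females, where 9.91% of all genes rose and 9.04% fell, and 1 rose and 4 fell in males, where 6.76% rose and 9.38% fell. Without both sets of doubtful libraries 0 rose and 5 fell in 28-month females, where 1304 of 17826 genes passed. In a fit of the 28- and 6-month groups alone 0 rose and 0 fell, where 0 of 15595 passed. Mcee, the methylmalonyl-CoA epimerase of the propionate route shared by valine and isoleucine, had a log2 fold change of -1.03 in 20-month males (adjusted p = 2.4e-09) and of -1.195 in 20-month females (adjusted p = 3.1e-08). Hsd17b10, a dehydrogenase of the isoleucine branch, fell by 0.65 in males (adjusted p = 3.6e-09) and by 0.76 in females (adjusted p = 3.8e-08), and Auh, a hydratase of the leucine branch, by 0.59 (adjusted p = 5.1e-06) and by 0.77 (adjusted p = 2.7e-06). Aldh6a1, of the valine branch, rose by 0.65 in 20-month males (adjusted p = 2.7e-07). With the length and GC offsets 1 rose and 5 fell in 20-month males, where 5504 of 18218 genes passed, and 0 rose and 4 fell in 20-month females, where 3160 passed.

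Transporters and regulators, 13 genes, had positive medians, of 0.69 in 20-month males and 0.58 in 20-month females, with 7 higher and 1 lower in 20-month males and 6 higher and 1 lower in 20-month females, beside 22.6% and 18.2% of all genes higher. The single gene that fell was Esrra, an orphan nuclear receptor of mitochondrial genes, by 0.85 in males (adjusted p = 1.8e-06) and by 0.82 in females (adjusted p = 0.00019). Slc43a2, a carrier of large neutral amino acids, rose by 0.95 (adjusted p = 4.4e-05) and by 1.15 (adjusted p = 9.2e-05). The smallest p in 20-month females was that of Ppara, which rose by 1.89 (adjusted p = 1.7e-05), and Ppargc1a rose there by 1.38 (adjusted p = 0.0033). At 28 months 5 rose and 1 fell in females, among them Slc7a5 (1.34, adjusted p = 0.003) and its partner Slc3a2 (0.93, adjusted p = 0.0022), and 0 rose and 1 fell in males, beside 9.91% of all genes higher in females and 6.76% in males. In 28-month females 6 rose and 0 fell without both sets of doubtful libraries, where 1304 of 17826 genes passed. In a fit of the compared groups alone 0 rose and 0 fell, where 0 of 15595 passed. With the offsets the 20-month counts were 4 higher and 2 lower in males, and 2 higher and 1 lower in females, where 5504 and 3160 of 18218 genes passed in either direction.

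The pyruvate dehydrogenase complex, a sister complex with kinases and phosphatases of its own, was listed for comparison with 10 genes. Pdhb, its decarboxylase beta subunit, fell by 0.52 in 20-month males (adjusted p = 6.6e-06) and by 0.35 in 20-month females (adjusted p = 0.017). In 20-month males 2 of the list rose and 2 fell, beside 22.6% and 22% of all genes. Those that rose were the phosphatases Pdp2 (0.74, adjusted p = 0.011) and Pdp1 (0.47, adjusted p = 0.024), and Pdhx also fell (-0.34, adjusted p = 0.0087). In 20-month females 0 rose and 1 fell, beside 18.2% and 17.8%. With the offsets 0 rose and 3 fell in 20-month males, where 5504 of 18218 genes passed, and 0 rose and 0 fell in 20-month females, where 3160 passed. At 28 months 0 rose and 3 fell in females, among them Pdp1 (-0.75, adjusted p = 0.0093), beside 9.91% and 9.04% of all genes. In 28-month males 0 rose and 1 fell, beside 6.76% and 9.38%. Of 6 nitrogen partners, which pass on the glutamate nitrogen, 0 passed at 20 months in either sex by edgeR or DESeq2, while limma-voom called 1 higher and 2 lower in males and 0 higher and 1 lower in females. Of all 18218 genes, edgeR called 8128 in those males and 6562 in those females, and limma-voom called 9607 and 9328. In 28-month females Glul, glutamine synthetase, rose by 1.05 (adjusted p = 0.0065) while Glud1 fell by 0.23 (adjusted p = 0.034), beside 9.91% and 9.04% of all genes. Glul averaged 301 ± 253 CPM (SD) in 28-month females against 145 ± 19.2 CPM at 6 months. Without both sets of doubtful libraries 1 of this list rose and 0 fell in 28-month females, where 1304 of 17826 genes passed. In a fit of the 28- and 6-month females alone 0 of 15595 genes passed. With CaAKG 0 genes of these 4 lists passed by edgeR, DESeq2 or limma-voom, and the smallest p among the other enzymes was that of Abat (log2 fold change 0.49, adjusted p = 0.40).

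Within groups, the replicates also differed together. After each gene was centred on its group mean over the 77 replicates, Pearson's r was 0.80 between Ivd and Mccc1, 0.77 between Bckdha and Hibadh, 0.73 between Bcat2 and Bckdha, and -0.10 between Bckdk and Ppm1k. The genes most like Bckdk, among 7655 with a mean of at least 10 CPM, were Fitm1, Txn2 and Fastk (r = 0.90 each). Those most like Bckdha were Ndufv1 (0.85), Uqcrc1 (0.84) and Acads (0.84), and those most like Bcat2 were C030006K11Rik (0.82), Gcdh (0.81) and Echs1 (0.80). These values share their libraries, depth and composition and are descriptions.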

How the data were processed

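Soleus RNA was sequenced in 78 libraries. The values are expected counts per gene deposited by the authors; per the submitters' processing notes the tools were FastQC, STAR 2.7.11b and RSEM 1.3.3, with build mm10. 8.99% of values were not whole (tolerance 1e-06), and all were rounded. A further 55 columns of the table were left unread because they match none of the samples analysed. Libraries held 19.5 to 81.6 x 1e6 counts. Gene symbols came from the reference annotation for 35298 of 36904 IDs, and IDs without one held 0.883% of counts.

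Genes were filtered with filterByExpr (minimum count 10, minimum total 15) and 1 fit over 11 group means was made with edgeR 4.0.16 (TMM scaling, quasi-likelihood test, two-sided) in R 4.3.3. P-values were adjusted by Benjamini-Hochberg over 18218 genes, with a threshold of 0.05. CPM is counts per 1e6 of TMM-scaled library size, and correlations used log2 CPM with a prior count of 2. Standard errors and 95% intervals follow from the test statistic. Alternatives were DESeq2 1.42.0, limma-voom (limma 3.58.1), other filters, length and GC offsets, libraries left out and a replicate block. The procedure was tested on simulated data. Replicate numbers shared by groups did not pair the samples.

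The 10 genes and all lists were chosen with earlier results of these data known. All 10 are described. Of the other lists, genes named in the age and CaAKG comparisons come from the up to 4 with the smallest p among those past the threshold. Up to 2 were taken where none passed, and not all genes that met this rule are named. For Bcat2, Bckdha and Bckdk the 3 genes with the highest correlation are named.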

Additional observations from a re-analysis of the deposited data

Results flagged for a closer look

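Of 100 sets of replicates (10 genes in 10 groups), 5 held a replicate that stood far from the rest of its group by Dixon's criterion, which chance gives in about 1 in 20 groups. Bcat1 was 1.03 CPM in replicate 11 of the 28-month males of batch 1, whose other replicates lay between 0.182 and 0.383 CPM. It was 3.43 CPM in replicate 1 of the 6-month males, whose others lay at 0.805 CPM or less. Mccc1 was 31.4 CPM in that same replicate, against 43.6 to 49.4 CPM in the others. Bckdk was 161 CPM in replicate 3 of the 12-month males, a library against its sex label, against 226 to 257 CPM in the others. Hibadh was 111.02 CPM in replicate 5 of the 12-month females, a library with skin transcripts, against 183 to 214 CPM in the others.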

How the results depend on the processing

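Of 3835 values of single genes under other settings, 3690 stayed on their side of the threshold, 96 lost it, 49 gained it and 0 called values changed sign; the cause of a change was not tested. The number of the 10 genes called between 28 and 6 months in females was 4, 0 in a fit of the compared groups alone (where 0 of 15595 genes passed) and 1 without both sets of libraries (those whose sex label is contradicted and those with skin or marrow transcripts), when Hibadh alone passed. Without both sets 1304 of 17826 genes passed in females. In males 3 of the 10 were called, 5 with limma-voom, 1 with offsets from median coding transcripts and 5 without both sets of libraries. All genes called there were 2940, 5376 and 1919 of 18218, and 4418 of 17826, in that order. Between 20 and 6 months 6 of the 10 were called in each sex, and 2 with length and GC offsets. Offsets from median coding transcripts, a setting chosen after seeing the data, called 3. Of 18218 genes, 6562, 3160 and 3467 were called in females and 8128, 5504 and 5832 in males, in that order. In 12-month males 0 of the 10 were called, and 1 with limma-voom, without the libraries against their sex label and without both sets. All genes called were 1794 and 3177 of 18218, 3181 of 18676 and 3652 of 17826, in that order. Between 28 and 20 months in females 2 of the 10 were called. The count was 1 with limma-voom, with no filter and without the skin or marrow libraries, and 0 with either kind of offset. All genes called were 5452 and 4443 of 18218, 5178 of 34678 and 4213 of 17912, and with the offsets 2808 and 2910 of 18218. In males 1 of the 10 was called, where 3102 of 18218 genes passed, 2 with DESeq2 (3823 genes) and 5 with limma-voom (6586 genes). The count was 0 with no filter (2491 of 34678 genes) and with either kind of offset (567 and 622 of 18218). With only the compared groups 4 were called (5224 of 15349 genes). Without the libraries against their label and without both sets 2 were called (3717 of 18676 and 4213 of 17826 genes). Between the sexes at 28 months 1 of the 10 was called, where 236 of 18218 genes passed, and 2 with limma-voom, where 1792 passed. The count was 0 with mitochondrial genes left out, no filter, the replicate block, the shared animal tag kept apart, either kind of offset and without the libraries against their label. All genes called in those fits were 198 of 18244, 140 of 34678, 172 of 18218, 184 of 18240, 202 and 203 of 18218, and 387 of 18676. Between batches 1 of the 10 was called in females, where 3605 of 18218 genes passed. The count was 2 with DESeq2, a minimum count of 50 and without the libraries against their label (3874 of 18218, 3462 of 14053 and 4520 of 18676 genes). It was 3 without both sets (3654 of 17826 genes). With limma-voom, no filter and either kind of offset it was 0 (1271 of 18218, 3290 of 34678, and 1915 and 1974 of 18218 genes). Without the skin or marrow libraries the count was 1, where 2706 of 17912 genes passed, but the gene was Bcat2 (lower) and not Dbt. In males the count was 0, 3 with limma-voom and 4 with only the compared groups, where 185 and 2952 of 18218 and 1488 of 15473 genes passed.

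With each library left out in turn the counts ranged from 2 to 5 between 28 and 6 months in each sex, 5 to 6 between 20 and 6 months in each sex, 0 to 2 in 12-month females and 0 to 1 in 12-month males. They ranged from 1 to 2 between 28 and 20 months in females, 0 to 2 in males, 0 to 1 between the sexes at 28 months and 0 to 2 between batches in females, and stayed at 0 to 0 for CaAKG, the sexes at 20 months, batches in males and sex by age. Replicate numbers did not pair the samples (correlations -0.35 to 0.44), and the replicate block changed 1 count, that between the sexes at 28 months, to 0. Comparisons whose groups share fewer than 2 numbers were not given that fit. Depth limits Bcat1, with a median of 7 counts.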
